A study of Mus musculus with 48 samples.

Results

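The genes described are those of the cytosolic ribosomal proteins, measured in the livers of young mice whose fathers had eaten a control or a low protein diet. A gene was a member when its array symbol was Rpl or Rps followed by a number, or was Rpsa, Rplp0, Rplp1 or Rplp2. Paralogs ending in a, x, l or y were included. Symbols marked as pseudogenes (-ps) or retrogenes (rg) were left out, and members were not screened for retrogenes in any other way. The rule found 61 genes, 38 of the large and 23 of the small subunit, among 19938 genes with a probe set listed for a single gene. Where a gene had several such probe sets, the one with the highest mean over the 48 arrays stood for it, which applied to 39 of the 61. After a filter on low values, 58 members (35 large, 23 small) were among the 13542 genes tested; the other 3, Rpl3l, Rpl10l and Rpl39l, lay under the filter level of 5.46 on the log2 scale.

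Total RNA came from the median lobe of the liver of F1 mice at 3 weeks of age, male or female, with no sex given for single animals. Each F1 mouse carried 1 of 3 genotype labels: wild-type, ATF7+/-, or ATF7+/+, where ATF7 is a DNA-binding protein of the ATF/CREB family that responds to stress signals. How the wild-type and ATF7+/+ labels differ is not given in the sources used here, so both are kept apart and called by their labels. Within each label the F0 sires had been fed a control diet (CD) or a low protein diet (LPD) from 3 to 12 weeks of age, which makes 6 groups of 8 arrays. The values are the authors' RMA log2 levels from Affymetrix expression arrays, and differences below are differences of log2 levels. No array file gives cell or read counts, so the number of samples limits the precision. In a piece of liver, fewer cells of a type and less RNA per cell cannot be told apart. All 6 hepatocyte genes used as a tissue check were measured: albumin (Alb) lay between 13.32 and 13.7, with a median of 13.48, and the lowest value of any of the 6 was 11.84 (Tat).

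Cytosolic ribosomal proteins build the small subunit, which reads the messenger RNA, and the large subunit, which joins the amino acids and carries the acidic stalk that recruits the GTP-driven translation factors. Their messenger RNAs are among the most abundant in any cell, and their translation is controlled together through a pyrimidine tract at the very 5′ end of the transcript, the TOP motif, to which LARP1 binds downstream of mTORC1. In the liver, a secretory organ, ribosome number follows feeding and growth, and dietary protein is one of the inputs that mTORC1 reads.

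The sequences around the annotated start sites are shown for the members on which the diet, label and array-set results turn, because the TOP tract is the element this family is known for. Each runs 5′ to 3′ from 50 bases before the RefSeq start through the first 25 bases of the transcript (GRCm38.p6), with capitals marking every C followed by at least 5 further C or T bases.
Rps18 (chr17:33955641-33955715, minus strand): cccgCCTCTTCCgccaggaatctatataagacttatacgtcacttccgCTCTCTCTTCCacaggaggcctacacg
Rps12 (chr10:23787185-23787259, minus strand): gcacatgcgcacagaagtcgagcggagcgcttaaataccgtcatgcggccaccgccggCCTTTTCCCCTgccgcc
Rps28 (chr17:33824538-33824612, minus strand): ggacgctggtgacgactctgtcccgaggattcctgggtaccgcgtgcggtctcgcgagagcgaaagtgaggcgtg
Rps3 (chr7:99483685-99483759, minus strand): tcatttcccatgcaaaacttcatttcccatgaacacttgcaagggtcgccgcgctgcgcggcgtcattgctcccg
Rpl19 (chr11:98026660-98026734, plus strand): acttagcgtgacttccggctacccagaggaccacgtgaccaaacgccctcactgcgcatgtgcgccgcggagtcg
Rpl5 (chr5:107900478-107900552, plus strand): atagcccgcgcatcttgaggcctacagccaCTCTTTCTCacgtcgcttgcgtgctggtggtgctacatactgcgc
Rpl26 (chr11:68901516-68901590, plus strand): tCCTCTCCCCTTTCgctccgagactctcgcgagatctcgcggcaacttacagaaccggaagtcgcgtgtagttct
Rpl38 (chr11:114668530-114668604, plus strand): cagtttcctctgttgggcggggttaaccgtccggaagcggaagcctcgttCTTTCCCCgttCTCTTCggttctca
Rpl24 (chr16:55966225-55966299, plus strand): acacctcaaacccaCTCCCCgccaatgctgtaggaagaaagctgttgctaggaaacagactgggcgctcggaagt
Rps18, Rps12, Rpl5, Rpl26, Rpl38 and Rpl24 have a marked tract somewhere in these windows, while Rps28, Rps3 and Rpl19 have none. A tract spans the annotated start in Rps18 and begins at it in Rpl38. The tract of Rps12 begins after the start, and those of Rpl5, Rpl26 and Rpl24 lie wholly before it. Only Rps18 and Rpl38 thus have a tract at the position of a TOP motif for the start shown. For Rpl19, RefSeq lists 2 start windows, of which 1 is shown. RefSeq promoter entries were found for 49 of the 61 members, with 58 start windows. A tract anywhere within 50 bases on either side of the start, on the coding strand, was present in 84.5% of these windows. The share was 58.1% in 32851 windows of the same length from 27025 genes. These shares count tracts before the start too and are not shares of TOP motifs. The letters CGGAAG, the core bound by ETS-family factors such as GABP, stood on either strand of the 300-base window in 62.1% of the members' windows and in 16.9% of all windows. AAGATGGC, the core of the YY1 motif, was on either strand of 5.17% and 2.75%. A match to these letters describes the sequence and is no measure of binding.

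Before any comparison, the arrays themselves differed in a way the labels do not name. The main axis of variation among 5591 probe sets that the annotation leaves without a gene split the 48 arrays into 18 (set A) and 30 (set B). Every group held 3 arrays of set A and 5 of set B, so the sets and the groups are balanced over the arrays. The labels do not say what the sets are. Of the arrays, 2 pairs, wild-type CD replicates 4 and 5 and ATF7+/+ CD replicates 7 and 8, were nearly identical: the spread of their difference in the most variable genes was 1.29 times that in the less variable genes, under the limit of 1.5, and each pair went into the fits as its mean, so that 46 samples remained. Both pairs lay in set B, so wild-type CD and ATF7+/+ CD then held 3 samples of set A and 4 of set B. The fits over all samples are therefore not fully balanced for the array set. The labels call the 8 experiments of a group biologically independent. Whether each array is a different litter or sire is not given in the sources used here, so the p-values measure the spread between these samples. As a check of the labels, Atf7 itself was lower by 0.37 ± 0.06 (SE) in the ATF7+/- than in the ATF7+/+ samples (limma, adjusted p = 0.00124), whereas its difference between ATF7+/- and wild-type, -0.20, did not pass (limma, adjusted p = 0.242). Whether the Atf7 probes lie in the deleted stretch is not given in the sources used here.

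The largest differences among the ribosomal protein genes lay between the array sets. Of the 58 members, 27 had a higher mean in set A and 31 a lower one. The median size of the set difference was 0.28 for the members and 0.18 for all genes tested. Samples of the 2 sets did not overlap at all for 10 members (17.2%), against 640 of all genes (4.73%).

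Rpl24, a large-subunit protein that forms one of the bridges to the small subunit, ran from 10.53 to 11.25 in set A and from 9.07 to 9.44 in set B, a difference of 1.55 or 2.93-fold. Rps28, a small-subunit protein near the messenger RNA exit, ran from 10 to 10.81 against 9.39 to 9.65 (0.88 higher in set A). Both genes thus stood apart in every sample of set A, whatever the diet or label. Rps3a1 (0.83), Rps12 (0.81) and Rps25 (0.63) also had higher means in set A; for Rps12 the sets came close, with set A from 9.96 and set B up to 9.86. In the other direction, Rpl36, a large-subunit protein, ran from 9.26 to 10.48 in set A and from 10.75 to 11.10 in set B, a difference of -1.0. The difference was -0.95 for Rplp2, a stalk protein, whose ranges overlapped, -0.69 for Rpl9 and -0.63 for Rpl7l1. Each set difference is that of the 1 probe set chosen for the gene, out of 3 for Rpl24, 7 for Rps28 and 9 for Rpl36. Set differences of the other probe sets are not given here.

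**Figure D1:**
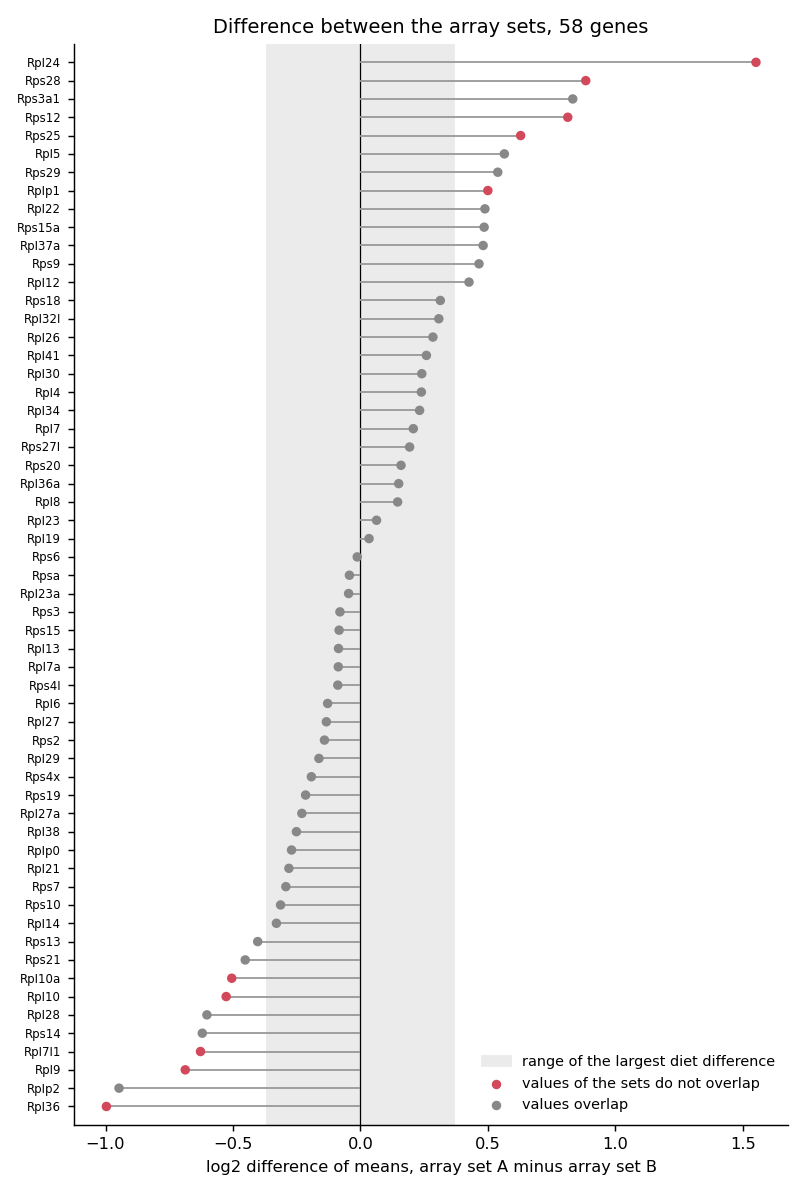
Each point is a member's mean log2 level in array set A minus that in set B (horizontal axis), with the 58 members ordered by the difference. Red points mark the 10 members whose samples do not overlap between the sets. The grey band spans the largest sire-diet difference of any member within a label in the fit over all samples, 0.37 either way. Some sire-diet differences in set A alone were larger. Rpl24 stands farthest to the right at 1.55 and Rpl36 farthest to the left at -1.0.

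The median share of a member's sum of squares that lay between the sets was 46.6%, against 21.6% for all genes, while the groups within the sets took 21.3% and 24.8%. Among samples of 1 group and 1 set the median SD was 0.119 for the members and 0.145 for all genes. Rps18 (0.0627), Rps6 (0.0628), Rps15 (0.066) and Rpl23 (0.0683) had the smallest spread, and Rpl12 (0.259), Rps4l (0.215), Rplp2 (0.202) and Rps19 (0.199) the largest. Rps6, the small-subunit protein that S6 kinase phosphorylates, kept its group medians between 12.69 and 12.75. Because of the split, every comparison below is given over all samples and, where the calls change, with the array set as a block and within each set.

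Averaged over the 58 members, with each member centred on its own mean over the 46 samples, the samples ran from -0.18 to 0.20 with a within-group SD of 0.0698. In the wild-type label this list mean had its lowest, median and highest sample at -0.08, 0.08 and 0.20 after the control diet and at -0.08, 0.00 and 0.07 after the low protein diet. The ATF7+/+ CD samples ran from -0.18 through -0.05 to 0.15, and the ATF7+/+ LPD samples from -0.08 through -0.04 to 0.05. The ATF7+/- groups lay between -0.07 and 0.14 (CD) and between -0.04 and 0.02 (LPD). All 6 groups overlapped, and the highest sample was wild-type CD replicate 2.

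**Figure D2:**
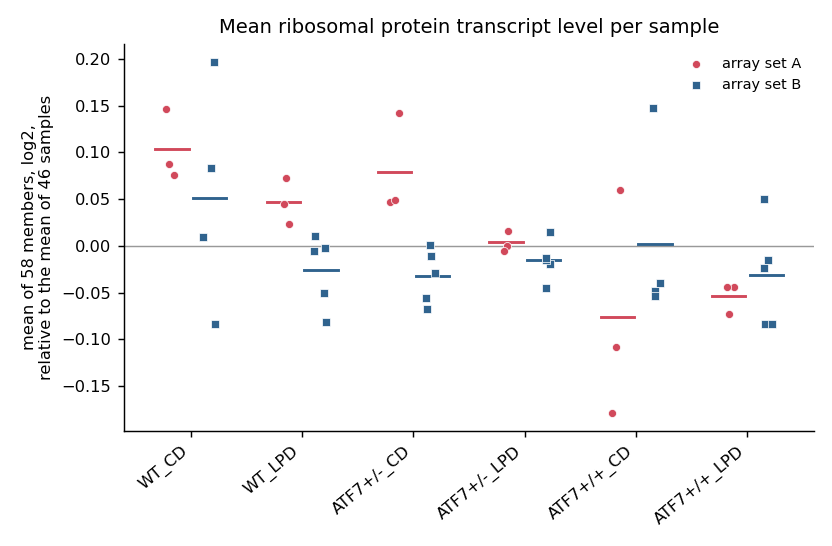
Each point is 1 of the 46 samples, placed by group, with the mean of the 58 members on the vertical axis (log2, relative to the mean of all samples); red circles are array set A, blue squares set B, and bars are the means of each group and set. The groups overlap, and all samples lie between -0.18 and 0.20.

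The first question was whether the sire's diet changed the ribosomal protein genes of the offspring liver. In the wild-type label, 49 of the 58 members had a lower mean after the low protein diet, with a median difference of -0.05, and none passed the test. The median was -0.03 without wild-type CD replicate 2 and -0.07 without wild-type CD replicate 3 or 7. In the small subunit 21 of 23 members had the lower mean (median difference -0.09), and in the large subunit 28 of 35 (median -0.03). Over all 13542 genes, 6627 differences were negative and the median was 0.00. With limma and Benjamini-Hochberg adjustment over all genes, 0 of the 58 members passed an adjusted p of 0.05, where 3.6% of all genes passed; at an unadjusted p under 0.05 there were 2 members and 15.9% of all genes.

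The 3 members with the smallest p in the wild-type diet comparison were Rpl19, Rps3 and Rpl7. For Rpl19, a large-subunit protein near the polypeptide exit, the wild-type CD samples of set A were 12.13, 12.24 and 12.24, and those of set B had their lowest, median and highest at 11.94, 12.07 and 12.20. The wild-type LPD samples were 11.92, 11.95 and 11.99 in set A and 11.90, 11.99 and 12.06 (lowest, median, highest) in set B. The groups overlapped in set B and did not in set A; the difference was -0.15 ± 0.05 (SE; limma, adjusted p = 0.0589). Without wild-type CD replicate 1 or 3, or ATF7+/- CD replicate 2, the adjusted p of Rpl19 was 0.0377, 0.0173 and 0.0428.

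For Rps3, a protein of the messenger RNA entry site that also works as a DNA repair endonuclease, the set A samples were 10.22, 10.55 and 10.58 after the control diet and 10.08, 10.10 and 10.13 after the low protein diet. In set B they ran from 10.21 through 10.29 to 10.43 and from 10.09 through 10.17 to 10.24. Set A again showed no overlap and set B did. The difference for Rps3 was -0.22 ± 0.07 (SE, limma, adjusted p = 0.0731). Rps3 passed with the replicate number as a block (-0.24, limma, adjusted p = 0.0409). In the wild-type label, however, the CD and LPD samples of replicates 1, 2, 7 and 8 lie in different array sets. Rps3 also passed without wild-type CD replicate 3 (limma, adjusted p = 0.0481) and without ATF7+/+ CD replicate 5 (limma, adjusted p = 0.0339). Rpl7, a large-subunit protein, differed by -0.15 ± 0.08 (SE; limma, adjusted p = 0.323).

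With the array set as a block, 5 members passed in the wild-type label, each lower after the low protein diet, where 9.26% of all genes passed in either direction and 3.07% were lower and 6.19% higher. They were Rps28, Rps12, Rps18, Rps3 and Rpl19; the members' share in either direction is close to that background. For Rps28, the set A samples were 10.68, 10.81 and 10.81 after the control diet and 10, 10.16 and 10.22 after the low protein diet, while set B ran from 9.48 through 9.55 to 9.65 and from 9.40 through 9.47 to 9.60. Its difference with the block was -0.31 ± 0.07 (SE; limma, adjusted p = 0.00576). The diets did not overlap for Rps28 in set A and did in set B.

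Rps12, a small-subunit protein of the beak, had set A values of 10.43, 10.63 and 10.90 against 9.97, 10.04 and 10.15, and set B values of 9.27, 9.38 and 9.86 against 9.22, 9.35 and 9.48 (lowest, median, highest). Its difference with the block was -0.32 ± 0.09 (SE; limma, adjusted p = 0.0187). Rps18, which lies at the head of the small subunit, had 12.05, 12.05 and 12.19 against 11.83, 11.90 and 11.91 in set A, and 11.62, 11.67 and 11.77 against 11.50, 11.56 and 11.63 in set B. Rps18 had the lower mean in both sets, with an overlap only in set B; its difference with the block was -0.16 ± 0.04 (SE; limma, adjusted p = 0.0129). Rps3 had an adjusted p of 0.0253 and Rpl19 of 0.0276 in the same fit.

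Set A alone, with 3 samples a group, called 5 members in the wild-type diet comparison, where 15.6% of all genes were called, 6.11% lower and 9.53% higher. Rps28 (-0.64), Rps12 (-0.60), Rps9 (-0.42) and Rps3 (-0.35) were lower, and Rpl36a, a large-subunit protein of the tRNA exit site, was higher (0.60). Set B alone, with 4 CD and 5 LPD samples, called 0 members, where 4.72% of all genes were called, and had 11 members at an unadjusted p under 0.05, all lower, beside 20.3% of all genes; there Rps28 differed by -0.08, Rps12 by -0.12, Rps9 by -0.02, Rps3 by -0.13, Rps18 by -0.12, Rpl19 by -0.08 and Rpl36a by -0.12. A test of the difference between the sets, added after seeing the data, called 5 members (9.45% of all genes), among them Rps28 (difference -0.57, limma, adjusted p = 0.000601), Rps9 (-0.40) and Rpl36a (0.72). The median member difference was -0.06 in set A, with a lower mean in 35 members, and -0.08 in set B, with a lower mean in 50. The direction was the same in both sets for 31 of the 58 members.

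**Figure D3:**
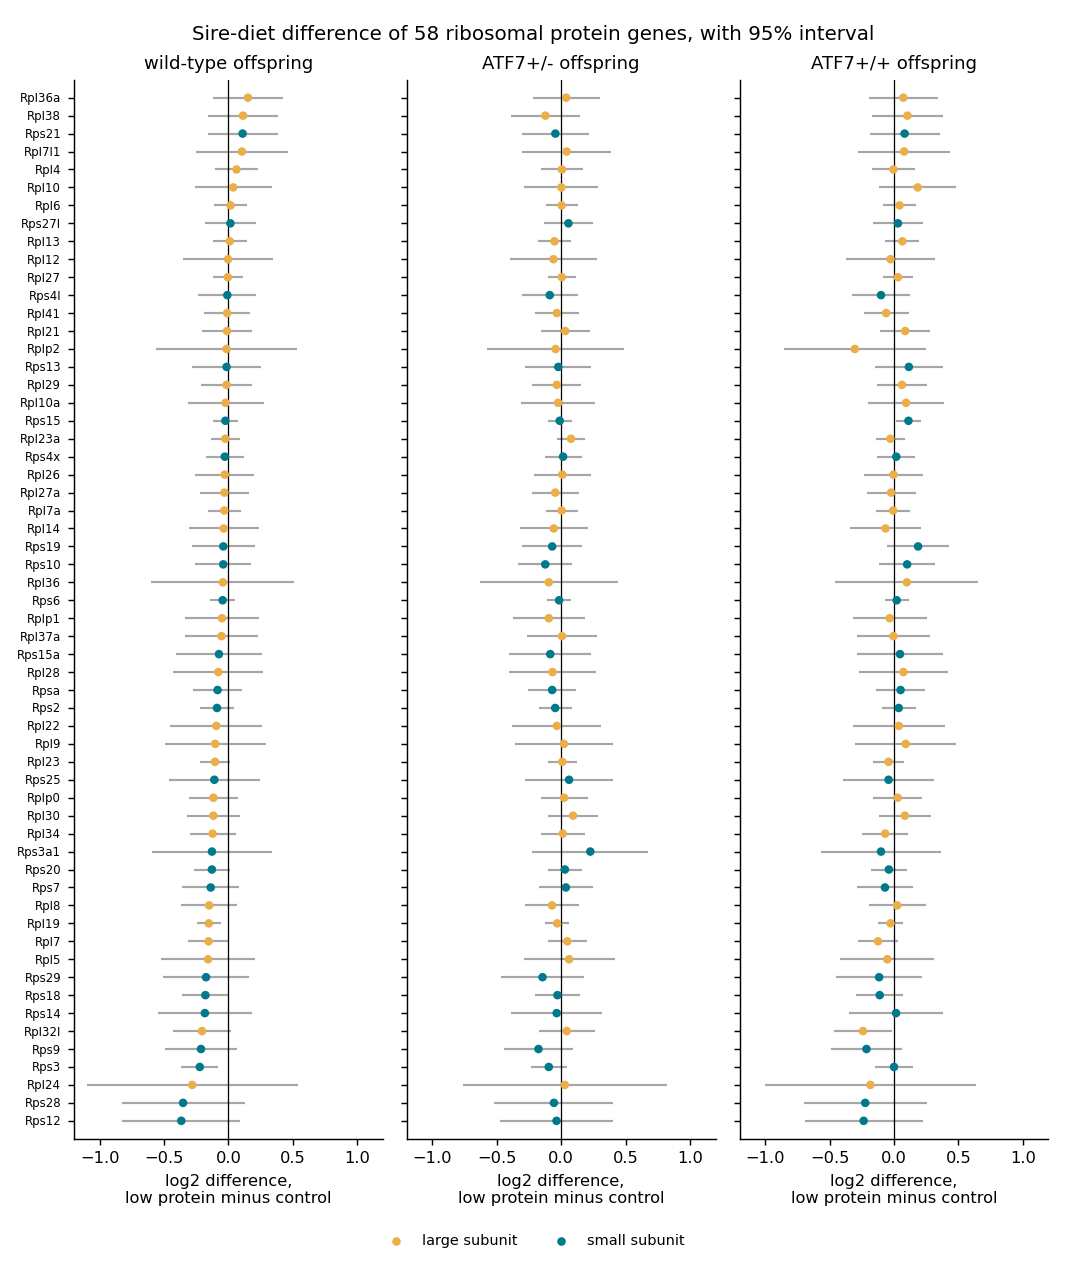
Points give the sire-diet difference (log2, low protein minus control) of the 58 members in the wild-type, ATF7+/- and ATF7+/+ labels, with 95% confidence intervals from limma over all 46 samples; orange is the large subunit, teal the small, and the order is that of the wild-type panel. In the wild-type panel 49 points lie below 0, and no member passed after adjustment in any panel.

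In the ATF7+/- label no member passed between the sire diets, where 0.0% of all genes passed (0 genes at the adjusted threshold, 0 members and 1.31% of all genes at an unadjusted p under 0.05). The median member difference was -0.02, and 32 of 58 had a lower mean; leaving out 1 sample moved this median between -0.024 and -0.001, the latter without ATF7+/- CD replicate 2. Rpl23a (0.08), Rps3 (-0.10) and Rps9 (-0.18) had the smallest p there (limma, adjusted p = 1). In the ATF7+/+ label no member passed either (0.00738% of all genes did), 2 members had an unadjusted p under 0.05 (4.59% of all genes), the median was 0.01, and 28 of 58 had a lower mean. That median had no settled sign: it was negative without ATF7+/+ CD replicate 1 or 2 or ATF7+/+ LPD replicate 2, 4 or 5, down to -0.02, and reached 0.04 without ATF7+/+ CD replicate 5. Rps15, of the small-subunit head, was 0.11 ± 0.05 (SE) higher there (limma, adjusted p = 0.988), with CD samples at 11.66, 11.94 and 12.05 and LPD samples at 11.94, 12.05 and 12.08 (lowest, median, highest), so the groups overlapped. Rpl32l (-0.24 ± 0.11, SE) and Rpl7 (-0.12) followed (limma, adjusted p = 0.999 for both). With the array set as a block these labels again had 0 members called, where 0.0% and 0.126% of all genes passed. Set A alone called 0 members in either label (0.00738% and 0.436% of all genes), with 5 and 11 members at an unadjusted p under 0.05, beside 6.68% and 14.9% of all genes. Set B alone also called 0, with 2 and 3 members at that threshold beside 2.48% and 8.74%.

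Averaged over the 3 labels, 38 of 58 members had a lower mean after the low protein diet (median -0.03; between -0.04 without ATF7+/+ CD replicate 2 and -0.02 without ATF7+/- CD replicate 2 or ATF7+/+ CD replicate 5) and none passed, where 0.805% of all genes passed; 5 members and 10.1% of all genes had an unadjusted p under 0.05. Rps9, a small-subunit protein that holds the messenger RNA entry, had a mean difference of -0.20 ± 0.08 (SE; limma, adjusted p = 0.315), beside -0.07 for Rpl19 (adjusted p = 0.302) and -0.11 for Rps3 (adjusted p = 0.307). With the set as a block 4 members passed, each lower (3.21% of all genes passed, 1.04% lower and 2.17% higher): Rps9 (-0.18), Rps28 (-0.18), Rps12 (-0.18) and Rps18 (-0.09). Set A alone called 8 (10.9% of all genes, 4.02% lower and 6.9% higher), with Rps28, Rps12, Rps9, Rps3, Rps18 and Rps29 lower and Rps27l (0.23) and Rpl36a (0.36) higher, and set B alone called 0 (0.871%), with 4 members at an unadjusted p under 0.05 beside 14.1% of all genes.

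Whether the diet difference itself varied with the label was tested directly. No member passed between wild-type and ATF7+/- (0.635% of all genes passed), between wild-type and ATF7+/+ (0.0222%) or between ATF7+/- and ATF7+/+ (0.0%); these 3 tests share groups. At an unadjusted p under 0.05 they had 0, 1 and 0 members, against 9.25%, 7.06% and 2.81% of all genes. The member with the smallest p was Rpl7 in the first (difference of differences -0.20, limma, adjusted p = 0.590), Rps3 in the second (-0.22, adjusted p = 0.648) and Rpl32l in the third (0.28, adjusted p = 1). Next in order came Rpl19 (-0.12) and Rps20 (-0.16) in the first, Rps15 (-0.14) and Rpl19 (-0.12) in the second, and Rps15 (-0.12) and Rpl7 (0.17) in the third. The lower values in the wild-type label were thus not shown to differ from those of the other labels, and the block for the array set gave no call in these tests either, where 2.21%, 0.377% and 0.0% of all genes passed.

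The precision of these diet comparisons was limited by the spread between samples. In the fit over all samples, used for the intervals here, that spread included the difference between the array sets. The median SD within a group was 0.219 for the members and 0.195 for all genes. Within a group and set it was 0.119 and 0.145. The 95% confidence interval of a member's difference stayed within 1.25-fold either way for 30 of 58 members in the wild-type label, 38 in the ATF7+/- label, 30 in the ATF7+/+ label and 51 in the mean over labels. It stayed within 1.5-fold for 53, 55, 53 and 57. Over all samples the largest fold between the sire diets of any member was 1.29, 1.17, 1.23 and 1.16. In the wild-type label some members differed by more in set A alone.

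Other measurements moved with the wild-type diet comparison, in which 3.6% of all genes passed over all samples. All 4 proliferation genes on the array list (Mki67, Ccna2, Top2a and Cdk1) were higher after the low protein diet, by a median of 1.38 (limma, adjusted p under the threshold for each); their list mean ran from -1.60 through -0.71 to 0.76 in the CD samples and from -0.12 through 0.59 to 1.19 in the LPD samples. Of 13 genes of the circadian clock, 1 passed (Tef, lower by 0.77). In set A alone 9 clock genes were lower and 2 higher, beside 6.11% and 9.53% of all genes. The clock list mean of set A ran from 0.50 to 0.66 after CD and from -0.42 to -0.09 after LPD. In set B 0 clock genes passed, where 4.72% of all genes did, and the clock median was -0.03. Of the other cell types, 1 of 2 erythroid genes (Alas2), 1 of 6 endothelial genes (Cdh5) and 2 of 6 stellate cell genes (Acta2, Lrat) were higher; the stellate list mean ran from -0.65 to -0.08 after CD and from -0.02 to 0.18 after LPD without overlap, the endothelial one from -0.37 to 0.32 and from 0.01 to 0.28, and the erythroid one from -0.97 to 1.25 and from -0.17 to 0.91. The part of these lists in the ribosomal protein differences was not tested.

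Among genes that work with the ribosomal proteins, the lists for the wild-type diet comparison gave these counts, beside the same 3.6% of all genes. None of 32 translation factors passed (median -0.02) and none of 76 genes of rRNA transcription and processing (median -0.07, 58 with a lower mean). Of 77 mitochondrial ribosomal proteins, 1 was called, Mrps28 (higher by 0.36), and the median was 0.10. Of 17 genes of mTORC1, LARP1 and MYC, 1 was called, Sesn1, a p53 target that restrains mTORC1 (higher by 0.37), and of 6 genes of the p53 response to ribosomal stress, 0. Fau, whose product is split into a ubiquitin-like protein and a small-subunit protein, differed by -0.10 and was not called. The retrogene Rps23rg1, which the rule leaves out, was higher after the low protein diet in the wild-type label by 1.34 ± 0.14 (SE; limma, adjusted p = 2.43e-08); its parent Rps23 had no single-gene probe set.

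The second question was whether the genotype labels differed, with both sire diets averaged. Between ATF7+/+ and wild-type, 42 of 58 members had a lower mean in ATF7+/+ (median -0.07, against -0.01 for all genes), 28 of 35 in the large subunit (median -0.10) and 14 of 23 in the small subunit (median -0.03). No member passed, where 0.0222% of all genes passed. At an unadjusted p under 0.05 there were 16 members, 14 lower and 2 higher, beside 12.4% of all genes (7.31% lower and 5.09% higher). The 3 members with the smallest p were Rpl8 (-0.34 ± 0.08, SE; limma, adjusted p = 0.0594), Rpl26 (-0.30 ± 0.08; adjusted p = 0.101) and Rpl23 (-0.14 ± 0.04; adjusted p = 0.114).

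The array sets differed in this comparison. With the set as a block, 12 members passed (3.4% of all genes), 11 lower (2.12% of all genes) and 1, Rpl38, higher (1.28%). Set A alone called 25 of 58, 18 of 35 in the large subunit (15 lower and 3 higher) and 7 of 23 in the small subunit (6 lower and 1 higher), where 28.6% of all genes were called, 17.4% lower and 11.2% higher. Set B alone called 0 members and 0.0% of all genes, with 2 members at an unadjusted p under 0.05 beside 5.83% of all genes. The test of the difference between the sets, added after seeing the data, called 18 members, where 17.0% of all genes were called. Set A had a median member difference of -0.14, and set B one of -0.02.

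For Rpl5, which carries the 5S rRNA with Rpl11 and binds Mdm2 when free, the set A samples of wild-type had their lowest, median and highest at 11.26, 11.36 and 11.48, and those of ATF7+/- at 11.08, 11.35 and 11.41. The ATF7+/+ samples of set A were at 10.41, 10.58 and 10.69, below every sample of the other labels in that set. In set B the 3 labels shared 1 range, from 10.40 to 10.83, from 10.43 to 10.61 and from 10.33 to 10.79. Over all samples Rpl5 differed by -0.35 ± 0.13 (SE; limma, adjusted p = 0.217). It differed by -0.79 ± 0.06 (SE; limma, adjusted p = 1.60e-06) in set A and by -0.05 in set B, with a difference between the sets of -0.74 (limma, adjusted p = 7.16e-08).

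Rpl8, next to the peptidyl transferase center, ran in set A from 10.21 through 10.37 to 10.77 in wild-type, from 10.17 through 10.25 to 10.40 in ATF7+/- and from 9.44 through 9.62 to 9.96 in ATF7+/+. In set B its medians were 9.95, 9.94 and 9.94 in the same order. The ATF7+/+ samples of set A were again all below the other labels, while in set B the labels overlapped; Rpl8 differed by -0.75 in set A (limma, adjusted p = 5.37e-05) and by -0.07 in set B. Over all samples Rpl8 was nearest to the threshold of the members: its adjusted p fell under 0.05 when wild-type CD replicate 2 or 3, wild-type LPD replicate 3, 5 or 8, ATF7+/+ CD replicate 5 or ATF7+/+ LPD replicate 7 was left out, and was lowest, 0.0161, without ATF7+/+ CD replicate 5. Rpl26 passed without wild-type CD replicate 3 or ATF7+/+ CD replicate 5, and Rpl23 and Rps3 without ATF7+/+ CD replicate 5.

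Rpl22, a large-subunit RNA-binding protein, ran in set A from 8.35 through 8.52 to 8.72 in wild-type and from 7.46 through 7.80 to 7.95 in ATF7+/+, and Rpl26, which sits at the exit tunnel, from 8.96 through 9.24 to 9.31 and from 8.32 through 8.57 to 8.76. Neither pair of ranges overlapped. In set B Rpl22 differed by 0.02 and Rpl26 by -0.09. Rpl38, whose loss in mice selectively lowers the translation of Hox messenger RNAs, went the other way: the set A samples of wild-type were at 10.94, 11.23 and 11.35, those of ATF7+/- at 11.22, 11.27 and 11.82 and those of ATF7+/+ at 11.71, 12.15 and 12.19. All 6 ATF7+/+ samples lay above the wild-type samples, and they overlapped those of ATF7+/-. Rpl38 differed by 0.84 ± 0.09 (SE; limma, adjusted p = 1.78e-05) between ATF7+/+ and wild-type in set A and by -0.01 in set B, where the 3 medians were 11.78, 11.82 and 11.77.

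**Figure D4:**
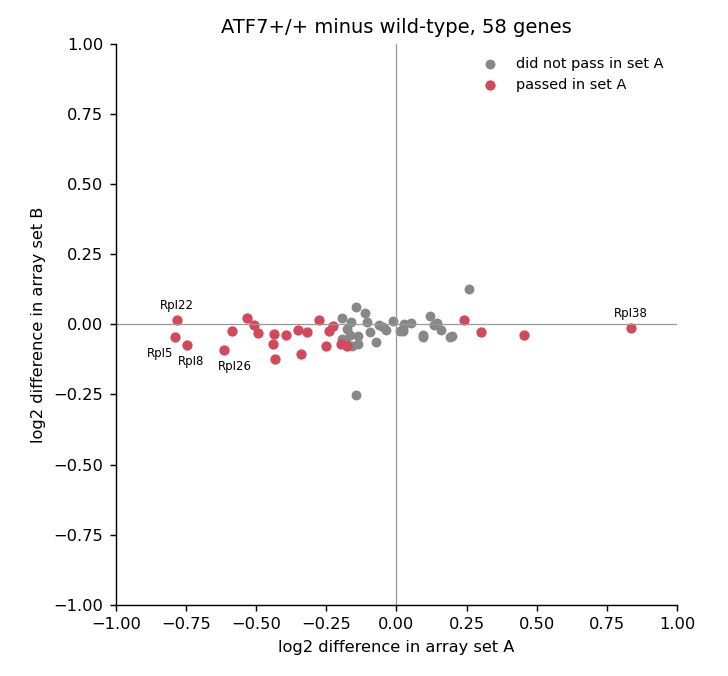
Each point is 1 of the 58 members, with the log2 difference ATF7+/+ minus wild-type in array set A on the horizontal axis and in set B on the vertical axis; red marks the 25 members that passed in set A. The points spread along the horizontal axis from -0.79 (Rpl5) to 0.84 (Rpl38) and stay within 0.25 of 0 on the vertical axis.

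**Figure D5:**
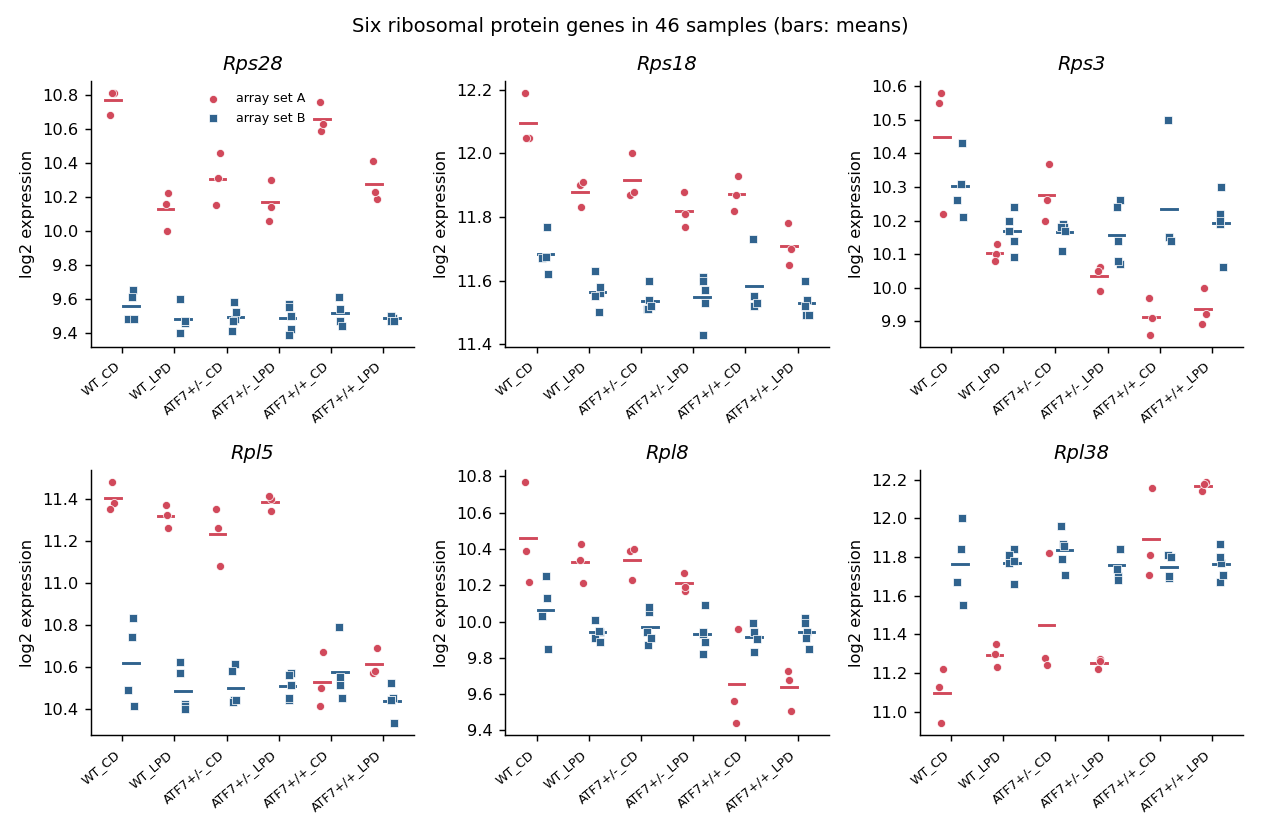
Log2 levels of Rps28, Rps18, Rps3, Rpl5, Rpl8 and Rpl38 in the 46 samples by group, with red circles for array set A, blue squares for set B and bars for the means; each panel has its own vertical scale that does not start at 0. For Rpl5 and Rpl8 the 6 ATF7+/+ samples of set A lie below the other set A samples, and for Rps28 the set A samples of the wild-type diets do not overlap.

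In set A, Rpl36 (-0.59), Rpsa (-0.53) and Rps3 (-0.35) were also lower in ATF7+/+ than in wild-type, and Rpl28 (0.30) and Rps27l (0.24) higher. Rpsa, the small-subunit protein that doubles as a laminin receptor, ran from 10.41 to 10.98 in wild-type and from 10.02 to 10.47 in ATF7+/+, a small overlap, and differed by 0.02 in set B. Of the sizes in set B, the largest of any member was 0.25 (Rpl14, not called).

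Within set A the 6 ATF7+/+ arrays also stood apart on probe sets with no listed gene: the first component there, which took 30.6% of the variance, put them between 0.237 and 0.462, the ATF7+/- arrays between -0.222 and -0.031 and the wild-type arrays between -0.234 and -0.024. The genotype label and this split of arrays cannot be told apart within set A. Of the 6 ATF7+/+ samples of set A, 6 had high Y-linked genes, against 4 of 6 in each of the other labels; with the mean of Eif2s3y and Kdm5d as a covariate set A called 23 members, where 27.2% of all genes were called. In the same comparison of set A without the covariate, 28.6% of all genes were called, 17.4% lower and 11.2% higher. Beside that, 12 of 32 translation factors were lower and 3 higher, and 25 of 76 genes of rRNA production lower and 4 higher. Of 77 mitochondrial ribosomal proteins 20 were lower and 11 higher, and of 13 clock genes 8 were lower and 2 higher. The clock list mean of set A ran from -0.42 to 0.66 in wild-type, from -0.17 to 0.30 in ATF7+/- and from -0.46 to -0.12 in ATF7+/+. Of 6 Kupffer cell genes 5 were lower, with list means from 0.03 to 0.39 in wild-type, from -0.27 to 0.23 in ATF7+/- and from -0.55 to -0.23 in ATF7+/+. In set B, where 0.0% of all genes were called, none of these lists had a gene called. Their part in the ribosomal protein differences was not tested.

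Between ATF7+/- and ATF7+/+ no member passed (0.155% of all genes did); 9 members had an unadjusted p under 0.05, 7 higher and 2 lower in ATF7+/-, beside 11.4% of all genes (6.18% higher and 5.23% lower). Rpl8 (0.26 ± 0.08, SE; limma, adjusted p = 0.137), Rpl26 (0.23 ± 0.08; adjusted p = 0.192) and Rpl38 (-0.23 ± 0.09; adjusted p = 0.299) had the smallest p. The block for the array set called 4 members (3.24% of all genes, 1.68% higher and 1.57% lower): Rpl26, Rpl5 and Rpl8 were higher in ATF7+/- and Rpl28 lower. Set A alone called 28 (22.8%), and set B alone 0 (0.0%), with 2 members at an unadjusted p under 0.05 beside 7.4% of all genes. The ATF7+/+ samples of set A are the shared side of this comparison and the one before it, so the values are given side by side and not as separate evidence: Rpl5 differed by 0.74 and Rpl38 by -0.68 between ATF7+/- and ATF7+/+ in set A.

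Between ATF7+/- and wild-type no member passed (0.00738% of all genes did), and 1 member had an unadjusted p under 0.05, beside 6.82% of all genes. The median was -0.04. Rpsa had the smallest p, with a difference of -0.14 ± 0.07 (SE; limma, adjusted p = 0.723), followed by Rps3 (-0.10) and Rps18 (-0.11). With the array set as a block the count was again 0, where 0.598% of all genes passed.

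The genes of the acidic stalk, through which translation factors dock, did not pass over all samples in the wild-type diet comparison or between ATF7+/+ and wild-type. Rplp0, the stalk base, differed by -0.12 between the sire diets in the wild-type label and by -0.10 between ATF7+/+ and wild-type. In set A alone Rplp0 was lower in ATF7+/+ by 0.23 (limma, adjusted p = 0.0136), and in set B its difference was -0.00. Over all samples Rplp1 differed by -0.05 and -0.03, and Rplp2 by -0.01 and 0.18. Rplp2 ran in wild-type from 4.92 to 6.05 in set A and from 6.48 to 6.82 in set B, without overlap in that label. Its values were low: the mean over the 48 arrays was 6.32, and some set A samples lay under the filter level of 5.46. Of the paralogs, Rpl7l1, a nucleolar paralog, differed by 0.11 between the wild-type diets, Rps27l, a p53 target, by 0.02, and Rps4l by -0.01, again without passing. The striated-muscle paralog Rpl3l, the testis paralog Rpl10l and Rpl39l lay below the array medians of 5.89 to 6.12, Rpl10l just under the filter level, with group medians from 4.55 to 4.83, from 5.25 to 5.55 and from 3.61 to 3.88; without the filter none of the 3 was called. Rpl11, Rpl3, Rpl39, Rps23 and Rpl22l1 belong to the 17 genes of the family that had only probe sets shared with other genes, so they gave no value.

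Several probe sets of 1 gene could be compared for the named members. Ribosomal protein genes have many processed pseudogenes, and probes of one may detect transcripts of another. The probe sets of 1 gene are therefore not independent measurements. The diet values below are those over all samples. In the wild-type diet comparison, all 7 probe sets of Rps18 (-0.29 to -0.18), all 7 of Rpl19 (-0.15 to -0.07), all 14 of Rps12 (-0.40 to -0.30) and all 7 of Rps28 (-0.43 to -0.33) were negative, though some hold identical values: 8 of the 14 for Rps12 and 6 of the 7 for Rps28 were distinct. For other members the size depended on the probe set: the 2 of Rps9 differed by -0.21 and -0.06 in the same comparison and by -0.20 and -0.04 in the mean diet comparison. Between ATF7+/+ and wild-type the 2 probe sets of Rpl23 differed by -0.14 and -0.03 over all samples, and the 5 of Rpsa by -0.53 to -0.14 in set A. The 5 probe sets of Rpl5 differed between ATF7+/+ and wild-type by -0.79 to -0.09 in set A, and the 4 of Rpl38 by 0.84 to 0.95. Rps3, Rpl8, Rpl26 and Rpl22 had a single probe set each, and for those there was no other probe set to compare.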

How the data were processed

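Liver RNA of 48 F1 mice was measured on Affymetrix arrays; the deposited values are log2 levels made by the authors with RMA in Expression Console, per the submitters' processing notes. The table holds 35556 probe sets, with values from 1.21 to 14.23 and array medians from 5.89 to 6.12. GEO's platform annotation lists 23410 of them, 21789 with 1 gene symbol and 1621 with several, and leaves 12146 unlisted. Probe sets with several symbols (237 of this family) were not used.

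Each gene was represented by its single-symbol probe set of highest mean, and genes above the 40th percentile of mean level (5.46) were tested. The means of the 6 groups were fitted with limma 3.58.1 (R 4.3.3) to 46 samples, with 10 contrasts and Benjamini-Hochberg adjustment over 13542 genes at 0.05. The fit over all samples was tested on simulated data with independent noise and no array sets. That test therefore does not cover the array-set split. Array sets came from the first component of unlisted probe sets. The members, the lists and the tests were chosen with earlier results of these data known. The genes named are those that passed or, where none did, the 3 with the smallest p, plus the paralogs, stalk and 5S particle genes, Rps6, Rpsa and the most and least variable members.

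Replicate numbers are shared between groups by title. Deviations of same-numbered samples correlated at 0.18 to 0.74 within ATF7+/-, at 0.30 to 0.67 within ATF7+/+ and at -0.47 to 0.50 within wild-type, and within array sets at -0.04 to 0.38, at -0.16 to 0.35 and at -0.24 to 0.10. Of the members' 217 single-symbol probe sets, 19 hold the same values as another. Sequences are RefSeq's, matched by symbol for 49 members.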

Additional observations from a re-analysis of the deposited data

Results flagged for a closer look

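In 4 of the 114 group-and-measure combinations examined (19 measures in 6 groups), 1 sample lay far from the others; chance alone gives this in about 1 of 20 such combinations. Rpl23, a large-subunit protein, was at 11.29 in ATF7+/+ CD replicate 5, a sample of array set B, and between 10.96 and 11.08 in the rest of that group. Without this sample Rpl23, Rpl26, Rpl8 and Rps3 passed between ATF7+/+ and wild-type. Rpl38 was at 12.16 and Rpl7 at 10.37 in ATF7+/+ CD replicate 3, a sample of array set A, against 11.69 to 11.81 and 10.05 to 10.17 in the other samples. Rpsa was at 10.28 in ATF7+/- CD replicate 7, of array set B, against 10.48 to 10.59.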

How the results depend on the processing

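In the fit over all samples no member was called in any of the 10 comparisons. In the wild-type diet comparison the count of members called rose to 1 with quantile normalization (Rps3, adjusted p = 0.0270 by limma), with the mean of all probe sets (Rps18, adjusted p = 0.0015 by limma), with the replicate block (Rps3, adjusted p = 0.0409 by limma) and with all 48 arrays as samples (Rpl19), and to 5 with the array-set block, in array set A alone, and in both of these with the Y-linked covariate (10.5% and 16.9% of all genes with it). For the mean diet difference it was 1 with the mean of all probe sets (Rps18), 4 with the array-set block, with or without the Y-linked covariate, and 8 in array set A alone, with or without it (3.83% and 12.3% of all genes with it). Between ATF7+/- and ATF7+/+ it was 4 with the array-set block, 28 in array set A, and 2 and 25 with the Y-linked covariate added (2.06% and 20.8% of all genes). Between ATF7+/+ and wild-type it was 1 with the filter at the 60th percentile (Rpl8, adjusted p = 0.0466 by limma) and with all 48 arrays (Rpl8), 12 with the array-set block, 25 in array set A, and 10 and 23 with the covariate added (2.31% and 27.2% of all genes); the median in array set A was -0.14. The settings with the Y-linked covariate beside the array set, and the test of the difference between the sets, were chosen after seeing the data. For the settings with 1 member called, the share of all genes called is not given here.

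Signs turned for Rps20 between the wild-type and ATF7+/- diet differences in array set A (0.087, and 0.086 with the Y-linked covariate) and for Rpl38 between ATF7+/- and ATF7+/+ in array set B (0.042). The cause was not tested. Leaving out 1 sample at a time, the count ran from 0 to 2 in the wild-type diet comparison and from 0 to 4 between ATF7+/+ and wild-type, and stayed 0 in the other 8. The shares of all genes called in those fits are not given here, so these counts have no background beside them. The member median ran from -0.07 to -0.03 in the wild-type diet comparison, changed sign in the ATF7+/+ diet comparison (-0.02 to 0.04) and between the ATF7+/- and ATF7+/+ diet differences (-0.05 to 0.01), and kept its sign in the other 7. The replicate block changed no other call. The Y-linked covariate held Eif2s3y and Kdm5d; Ddx3y was not used here. Array set A has 3 samples a group, so its calls rest on few samples, and probe sets shared with pseudogenes limit what a single probe set can say.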
